A study of Homo sapiens with 6 samples.

Results

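The comparison described here sets 3 count columns of 786-O cells with a short hairpin RNA against IGF2BP2, called set 3 after the number 3 in their names, against the 3 count columns labelled puro. The 6 columns were chosen by name alone, with no measured value used, and are read here as the 6 samples of the series. The count table holds 3 further columns, and no label says which columns belong to the hairpin samples. 786-O is an established line from a human clear cell renal carcinoma, and polyadenylated RNA was sequenced from cells kept in RPMI1640 medium with serum. The hairpin samples carry the genotype label shIGF2BP2, and the control samples carry the label puro, whose meaning the labels do not spell out. The sources used here give neither the hairpin's sequence nor whether the control cells carry a hairpin of their own. The last number of a column name was read as the replicate. No label explains the 3 before it, and if it names a sample instead, the 3 hairpin columns are runs of 1 sample. No label says that replicates came from separate cultures, so the p-values below measure only the spread between these columns.

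IGF2BP2 belongs to a family of RNA-binding proteins that read N6-methyladenosine (m6A), a methyl mark on adenosines of mRNA, and the family is known for stabilising the transcripts it binds. The series title places it in an axis of m6A and TGF-beta signalling through SMAD transcription factors in clear cell renal carcinoma. In TGF-beta signalling, secreted ligands bind paired receptor kinases that activate SMAD proteins, which then enter the nucleus and switch target genes. 786-O cells lack a working VHL protein, so that HIF-2alpha is active in normal oxygen. A short hairpin RNA is cut into a small guide RNA that is loaded onto an Argonaute protein and pairs with its target mRNA. The question addressed is which genes differ between the set 3 cells and puro.

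Column totals ran from 33821216 to 37143673 counts in puro and from 39887632 to 47470019 in set 3. Of 20020 genes in the table, 12990 passed a filter on low counts and were tested. Log2 levels correlated across genes at 0.991 to 0.993 within a group and at 0.965 to 0.968 between groups, and genes are not independent replicates. The first principal component, with 73.0% of the variance, separated the groups, and the next one, with 8.60%, set apart set 3 replicate 1. Of 12 genes chosen as markers of the 786-O line, 10 reached 1 CPM (counts scaled to library size, with TMM factors), PAX8 and VIM among them, while CA9 and NDUFA4L2 stayed below it in every column. Markers of other cell types were low: the summed level of 10 leukocyte genes was 25.4 to 27.0 CPM in puro and 24.5 to 27.8 in set 3, and that of 5 erythroid genes was at most 0.345. In bulk RNA, fewer cells of a type and less RNA per cell cannot be told apart.

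The targeted gene was lower in set 3, as the hairpin label has it. IGF2BP2, on the minus strand of chromosome 3 (185643739 to 185825056, GRCh38), read 72.4, 74.7 and 77.3 CPM in puro and at 33.8, 30.2 and 34.5 in set 3. The groups did not overlap, and set 3 kept 43.9% of the puro level (log2 fold change -1.19, SE 0.083, edgeR adjusted p = 1.70e-13). The paralog IGF2BP3 read 67.0, 76.1 and 75.9 CPM in puro and 74.2, 70.9 and 64.8 in set 3, and did not pass the test (log2 fold change -0.06, edgeR adjusted p = 0.548). IGF2BP1 was near the detection limit, at 0.381 CPM in puro and 0.275 in set 3 (edgeR adjusted p = 0.473).

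A majority of tested genes differed, in both directions and mostly by little. With the edgeR quasi-likelihood test at a false discovery rate (FDR) of 0.05, 7135 of 12990 genes (54.9%) differed, 3604 higher (27.7%) and 3531 lower (27.2%) in set 3. Of the 7135, 4123 genes (57.8%) differed by less than 1.5-fold. Changes of at least 2-fold were more often falls: 454 genes (3.49%) were higher and 747 (5.75%) lower, and at 4-fold or more the counts were 50 and 160. The median log2 fold change was 0.007, and 90% of genes lay between -1.11 and 0.90. Scaling with TMM factors places most genes near 0, so this median cannot show whether all genes shifted together. Without set 3 replicate 1, the counts were 3780 higher and 3551 lower. Any single gene or list below is to be read against these shares, since a call by itself is close to the common case.

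**Figure D1:**
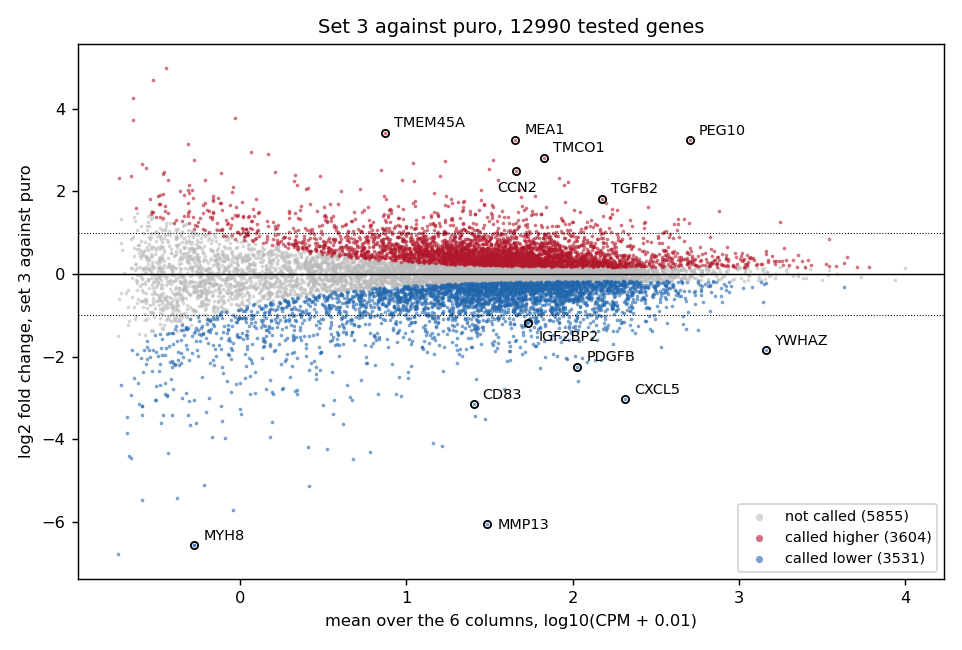
Log2 fold change of set 3 against puro (vertical axis) against the mean level over the 6 columns as log10(CPM + 0.01) (horizontal axis) for the 12990 tested genes; red genes were called higher, blue genes lower and grey genes not called, and dotted lines mark 2-fold. Among genes averaging 5 CPM or more with no overlap, the falls reach to MMP13 at -6.03 and the rises to TMEM45A at 3.42.

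The largest rises joined genes of unrelated functions. TMEM45A, a transmembrane protein gene known as a hypoxia target, read 1.80, 0.759 and 1.21 CPM in puro and 13.5, 14.7 and 12.7 in set 3. MEA1, a gene known from male germ cells, read 8.81, 8.73 and 8.24 CPM in puro and 86.9, 80.4 and 78.0 in set 3. PEG10, an imprinted gene derived from a retrotransposon, read 89.8, 101 and 102 CPM in puro and 939, 955 and 857 in set 3. No column of one group overlapped the other for these genes, whose log2 fold changes were 3.42, 3.25 and 3.24 (edgeR adjusted p = 6.72e-16, 1.11e-22 and 3.75e-24). Per length, PEG10 (chromosome 7, 94656325 to 94669695, plus strand) stood at 137 FPKM in set 3 and 14.8 in puro.

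TMCO1, a calcium channel of the endoplasmic reticulum, rose from 16.1, 16.6 and 17.9 CPM in puro to 133, 115 and 108 in set 3, a log2 fold change of 2.81. ARPC1A, a subunit of the Arp2/3 complex that nucleates branched actin, rose from 9.52, 7.88 and 8.47 CPM to 57.2, 57.8 and 59.5, a log2 fold change of 2.75. PDE6D, a chaperone that carries prenylated proteins, rose by 2.72 and CENPW, a centromere protein, by 2.54. The other genes among the 12 largest rises were EMP1, an epithelial membrane protein (2.68), ARL2BP, a partner of a small GTPase (2.51), CCN2, a secreted matricellular protein (2.50), CDK8, a kinase of the Mediator complex (2.38), and GJA1, the gap junction protein connexin 43 (2.33). Only called genes that averaged 5 CPM or more, and whose groups did not overlap, could enter these 12, so their separation is part of the choice.

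Among the falls, MMP13 led by a wide margin. It encodes a secreted collagenase (chromosome 11, 102942995 to 102955734, minus strand). It read 54.3, 68.8 and 58.3 CPM in puro and 1.38, 0.826 and 0.610 in set 3, a log2 fold change of -6.03 (SE 0.16, edgeR adjusted p = 1.04e-23). CXCL5, a chemokine that attracts neutrophils, was the most abundant of the 12 largest falls, at 343, 384 and 381 CPM in puro and 52.2, 42.2 and 41.8 in set 3 (log2 fold change -3.03). CD83, a surface protein of activated immune cells, fell from 44.9, 44.5 and 47.8 CPM to 5.28, 5.68 and 4.52 (-3.15). ANGPTL4, a secreted inhibitor of lipoprotein lipase and HIF target, fell from 72.0, 65.4 and 66.6 CPM to 10.2, 10.7 and 8.65 (-2.79). For each of these 4 genes, every set 3 column lay below every puro column. The remaining falls in the group were BCL2L15 (-4.31), the microtubule-associated MAP7D2 (-4.17), the ubiquitin ligase subunit ASB2 (-4.09), the adaptor subunit AP1S3 (-3.50), BMF, a BH3-only activator of apoptosis (-3.42), the phosphatase DUSP8 (-2.94), KY (-2.91) and AFAP1L2 (-2.89).

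**Figure D2:**
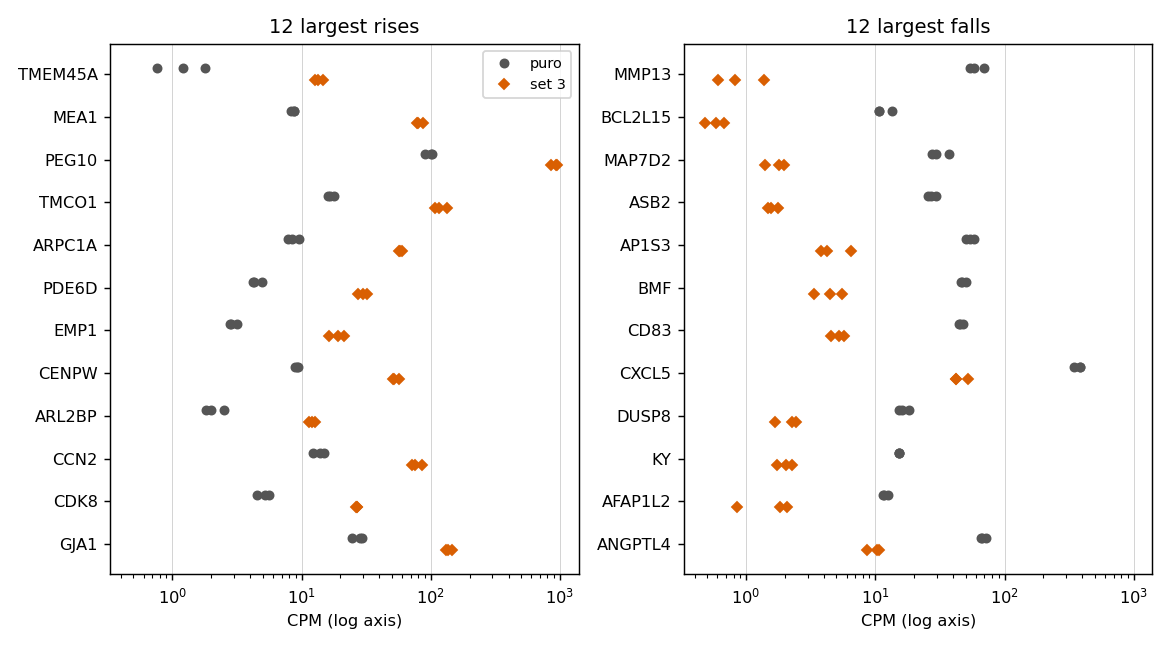
CPM on a log axis in each of the 3 puro columns (grey circles) and the 3 set 3 columns (orange diamonds) for the 12 largest rises and the 12 largest falls. Within each gene the 3 columns of a group lie close together, and the groups are apart in all 24 genes, as the choice of genes requires.

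On the scale of FPKM, which weighs abundant transcripts, the leading movers were other genes. The 6 largest gains were MT-ATP6, RPL12, RPS27, MT-CO3, RPLP2 and MT2A, and of these RPLP2, a protein of the ribosomal stalk, and MT2A, a metallothionein that binds zinc and copper, more than doubled in level (log2 fold change 1.33 and 1.34). RPLP2 went from 302, 237 and 261 CPM to 684, 681 and 649. The 6 largest losses were the ferritin light chain FTL, the glycolytic enzyme PKM, YWHAZ, AKR1B1, CD24 and PARP2. YWHAZ, a 14-3-3 adaptor protein often used as a reference gene, fell from 2125, 2340 and 2343 CPM to 671, 605 and 624 (log2 fold change -1.84, edgeR adjusted p = 2.46e-19). The sources used here do not say how reads shared with pseudogenes or overlapping genes were counted, which bears on the ribosomal protein, metallothionein and mitochondrial genes above.

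Among the leading genes, a short word recurred in the 3' untranslated region (UTR). Words of 7 letters were ranked by a difference: the median log2 fold change of the genes that hold the word minus that of the genes without it, over 12475 tested genes with a 3' UTR in GENCODE 29. The length of 7 is that of the stretch, bases 2 to 8, through which a guide RNA on Argonaute mostly finds its partial matches. The sites below are examples from the largest rises and falls, with TGFB2, a ligand of the pathway in the series title, and IGF2BP2, the hairpin's target, added. Each is 30 bases, 5' to 3' on the transcript's strand, from the GENCODE 29 transcripts on GRCh38, with the ranked words in capitals. The first 7 lie in genes that rose, and the last 3 in genes that fell.
TMEM45A, chr3:100577211-100577240, plus strand: ctttcattttgCACATCAtgCACATCAtgg
MEA1, chr6:43012344-43012373, minus strand: gtctccctttcCACATCAaggCACATCAga
PEG10, chr7:94666598-94666627, plus strand: ctaaagagtagCACATCAaaaggactccaa
TMCO1, chr1:165727962-165727991, minus strand: tctagacacacACACATCAgactggcaact
PDE6D, chr2:231732589-231732618, minus strand: ccctacaggctACACATCtacctttggccc
CENPW, chr6:126348554-126348583, plus strand: agacattttttACACATCAgttaatatggg
TGFB2, chr1:218442347-218442376, plus strand: cataattgaaaACACATCtgcagatctctt
AP1S3, chr2:223752438-223752467, minus strand: aaatataatttGGGAAATgaatgcagtaaa
CD83, chr6:14135547-14135576, plus strand: aaaagggtcttGGGAAATatgaatgccccc
IGF2BP2, chr3:185644868-185644897, minus strand: attcacccagaGGGAAATctcgtcggaagg

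Genes holding ACACATC or CACATCA, the highest-ranked pair of words, lay higher in set 3. The 2133 genes with at least 1 such site had a median log2 fold change of 0.12 and the 10342 without one had -0.01. The median was 0.11 for the 1758 genes with 1 site and 0.20 for the 375 genes with 2 or more. Of 423 searched genes that rose at least 2-fold, 171 (40.4%) held a site, as did 17.1% of all searched genes and 13.3% of the 708 that fell at least 2-fold. Among the 12 largest rises, 11 could be searched and 8 held a site: TMEM45A, MEA1 with 3 sites, PEG10 with 4, TMCO1, PDE6D, EMP1, CENPW and ARL2BP. None of the 12 largest falls did.

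The word with the lowest difference was GGGAAAT. It was held by 2050 genes with a median of -0.16, against 0.03 in the 10425 without it, and the median went to -0.30 in the 429 genes with 2 or more sites. Of the 708 falls of at least 2-fold, 225 (31.8%) held it, as did 16.4% of all searched genes and 13.9% of the 423 rises. Among the 12 largest falls, however, only AP1S3 and CD83 held it, a share of 16.7% that is near that of all searched genes. IGF2BP2 itself holds 1 GGGAAAT site and 1 CACATCA site, and YWHAZ and CD83 hold 2 GGGAAAT sites each. Of the genes that rose, TGFB2 holds 1 GGGAAAT site beside 2 sites of the first kind, and EMP1 holds 1 of each kind. Genes with both kinds of site lay between, with a median of -0.06 over 641 genes, against 0.20 for the 1492 with only the first kind and -0.22 for the 1409 with only GGGAAAT.

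Genes with these words have longer 3' UTRs, with a median of 3088 bases for ACACATC or CACATCA and 3152 for GGGAAAT, against 1349 for all searched genes. Within each quartile of UTR length the direction was the same: in the shortest quartile the median was 0.45 with the first pair of words and 0.03 without, and -0.39 with GGGAAAT and 0.04 without. In the longest quartile the figures were 0.03 and -0.07 for the first pair, and -0.14 and 0.02 for GGGAAAT. The words were picked on the same fold changes, so these shares and medians describe the genes and test nothing. None of 2370 mature human miRNAs in the RefSeq table has bases 2 to 8 complementary to any of the 3 words. Only this full match was searched, so miRNAs that pair with part of a word were not looked for. The part of such sites in the changes was not tested.

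**Figure D3:**
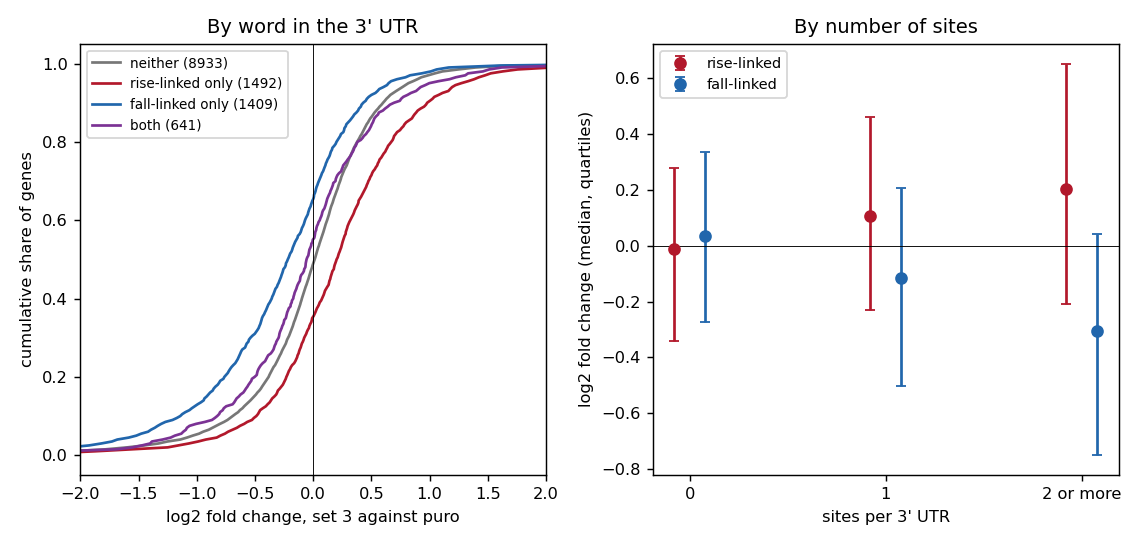
Left, cumulative share of genes (vertical axis) by log2 fold change of set 3 against puro (horizontal axis), split by whether the 3' UTR holds the rise-linked words, the fall-linked word, both or neither, with the number of genes in brackets. Right, the median and quartiles of the log2 fold change for genes with 0, 1 and 2 or more sites, which run up to 0.20 for the rise-linked words and down to -0.30 for the fall-linked word.

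The TGF-beta pathway named in the series title moved in both directions. Among 40 tested genes for its ligands, receptors and SMAD proteins, 11 were higher (27.5%) and 17 lower (42.5%). Over all tested genes the shares were 27.7% and 27.2%, so the share of rises was near the common case. The median log2 fold change was -0.02, beside 0.007 for all tested genes. Ligand genes went both ways, with TGFB2, TGFB1 and INHBA higher, GDF15 (-2.91), BMP2 (-0.73) and INHBB (-0.34) lower, and TGFB3 not called (0.23). GDF15 was a low gene, averaging under 2 CPM over the 6 columns. The lower ones and TGFB3 were named after their values were seen. TGFB2 read 63.6, 67.2 and 68.8 CPM in puro and 234, 231 and 239 in set 3, a log2 fold change of 1.82 (SE 0.075, edgeR adjusted p = 4.89e-19). TGFB1 read 75.1, 63.8 and 68.0 CPM in puro and 92.0, 110 and 105 in set 3 (0.57), and INHBA, the activin A subunit, rose by 1.04. The groups did not overlap for either TGF-beta ligand.

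The receptors went apart. TGFBR2, the receptor that binds ligand first, read 223, 245 and 218 CPM in puro and 94.9, 94.4 and 89.3 in set 3 (log2 fold change -1.30, edgeR adjusted p = 1.73e-15). TGFBR1, its signalling partner, rose by 0.29 (edgeR adjusted p = 0.00699), a call that ended without puro replicate 1 (edgeR adjusted p = 0.0511, where the alternatives spanned 0.000980 to 0.359). LTBP1, which tethers latent TGF-beta to the matrix, fell by 1.57 on the log2 scale. Of the SMAD genes, SMAD3 (-0.32), the inhibitory SMAD7 (-0.37) and the inhibitory SMAD6 (-0.98) fell. SMAD2 was called at -0.21 (edgeR adjusted p = 0.0377), but its groups overlap and the call was lost without puro replicate 2 or 3 and without set 3 replicate 2 or 3 (edgeR adjusted p between 0.148 and 0.162, where all alternatives spanned 0.00603 to 0.719). SMAD4, the partner shared by the pathway, did not pass (0.04, edgeR adjusted p = 0.718).

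Genes known to be induced by TGF-beta were likewise split, 11 of 37 rising (29.7%) and 14 falling (37.8%) with a median of -0.15. Of all tested genes, 27.7% rose and 27.2% fell, so the share of rises was again near the common case. CCN2 rose by 2.50 on the log2 scale and HMGA2, a chromatin architectural protein and proposed IGF2BP2 target, by 1.32. PDGFB, a platelet-derived growth factor chain, read 182, 165 and 181 CPM in puro and 33.7, 40.6 and 37.1 in set 3 (-2.25). The transcription factor SNAI1 (-1.30) and the secreted CTHRC1 (-1.26) also fell. Of other genes proposed as IGF2BP2 targets, MYC rose from 99.8, 98.2 and 103 CPM to 183, 211 and 198 (0.97, edgeR adjusted p = 1.88e-12), and CCND1 was not called (-0.02, edgeR adjusted p = 0.821).

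Listed targets of NF-kB, the transcription factor of inflammatory signalling, mostly fell. Of 29 tested, 25 fell (86.2%, beside 27.2% of all tested genes) and 0 rose by the edgeR test at FDR 0.05. At an unadjusted p of 0.05 the edgeR counts were also 25 and 0, and DESeq2 gave 25 and 0 at FDR 0.05. The median was -0.69, beside 0.007 for all tested genes. Of the 29, 12 fell at least 2-fold, as did 5.75% of all tested genes. TNFRSF9, a costimulatory receptor, read 102, 113 and 114 CPM in puro and 28.2, 27.1 and 27.4 in set 3 (log2 fold change -2.0). ICAM1, an adhesion receptor for leukocytes, read 133, 125 and 128 CPM in puro and 30.2, 32.4 and 34.9 in set 3 (-1.98). NFKBIA, the inhibitor that NF-kB induces to limit itself, read 138, 123 and 129 CPM in puro and 42.5, 41.4 and 41.1 in set 3 (-1.64). It was named after its values were seen. All 3 genes lie wholly below puro in set 3. The 4 members not called were CFLAR (-0.11), NFKBIZ (-0.05), NFKBIE (-0.03) and PLAU (0.00). The count of falls stayed between 20 and 25 over the 20 alternatives, with 0 rises in each. This list, like the others, was chosen with earlier results of these data known, so its counts describe its members and test nothing. They do not cover targets left off the list.

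Related secreted factors fell in part. Among 12 chemokines, 7 fell (58.3%) and 2 rose (16.7%), beside 27.2% and 27.7% of all tested genes. Their median was -0.75, which ran from -0.81 to -0.03 over the alternatives, the latter with limma on log2(FPKM + 1) and no filter. After CXCL5, the falls included CCL20 (-2.23) and CXCL2 (-1.03). CXCL1, a close relative of CXCL5, rose from 114, 99.8 and 95.2 CPM to 153, 155 and 174 (0.64). Neither CXCL1 nor CXCL5 is on the list of NF-kB targets. Among 15 interleukins and colony-stimulating factors, 8 fell (53.3%) and 2 rose (13.3%). CSF2 (-1.54), the death ligand TNFSF10 (-1.27) and IL6 (-0.90) were lower and IL18 (1.2) and CSF1 (0.44) higher. Interferon-stimulated genes had a median of -0.21, with 15 of 38 lower (39.5%) and 4 higher (10.5%). The ubiquitin ligase HERC5 (-1.82) and the GTPase GBP1 (-1.35) led the falls, and IFITM3, which blocks virus entry, rose by 0.66.

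Targets of YAP and TAZ, coactivators of growth control that act with TEAD factors, leaned upward, with a median of 0.32. Of 25 tested, 14 were higher (56%, beside 27.7% of all tested genes) and 6 lower (24%, near the 27.2% of all). CCN2, the best-known target, read 14.9, 12.3 and 13.8 CPM in puro and 71.3, 85.1 and 75.3 in set 3 (log2 fold change 2.50, edgeR adjusted p = 8.22e-20). TGFB2 (1.82) and the GTPase-activating ASAP1 (1.57) followed. Tissue factor F3 (-0.98), IGFBP3 (-0.68) and MYOF (-0.45) fell, and the coactivators YAP1 (-0.08) and WWTR1 (-0.12) were not called. NF-kB targets and YAP and TAZ targets share no member. 

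Promoters of TNFRSF9, NFKBIA and CCN2 are shown as examples from both lists, picked among members whose promoter holds a match to the motifs below. They span the transcription start, most of each lying before it, 5' to 3' on the gene's strand, from RefSeq on GRCh38.p14. Capitals mark matches, on either strand, to a form of the kappa-B motif, GGGNNTTTCC, in the first and second, and to GGAATG, the core of the TEAD motif, in the third.
TNFRSF9, chr1:7940790-7941089, minus strand: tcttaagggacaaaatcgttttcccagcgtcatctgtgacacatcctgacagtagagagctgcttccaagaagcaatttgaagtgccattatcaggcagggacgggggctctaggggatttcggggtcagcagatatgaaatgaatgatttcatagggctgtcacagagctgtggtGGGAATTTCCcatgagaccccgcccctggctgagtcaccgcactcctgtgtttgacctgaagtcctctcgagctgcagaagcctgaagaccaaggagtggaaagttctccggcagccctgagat
NFKBIA, chr14:35404700-35404999, minus strand: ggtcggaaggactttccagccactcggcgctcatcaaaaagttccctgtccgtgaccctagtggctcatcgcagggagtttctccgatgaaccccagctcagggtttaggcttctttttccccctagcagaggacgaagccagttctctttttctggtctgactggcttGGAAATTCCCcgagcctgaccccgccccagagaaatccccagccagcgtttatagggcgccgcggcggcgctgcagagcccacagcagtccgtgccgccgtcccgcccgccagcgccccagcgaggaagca
CCN2, chr6:131951323-131951622, minus strand: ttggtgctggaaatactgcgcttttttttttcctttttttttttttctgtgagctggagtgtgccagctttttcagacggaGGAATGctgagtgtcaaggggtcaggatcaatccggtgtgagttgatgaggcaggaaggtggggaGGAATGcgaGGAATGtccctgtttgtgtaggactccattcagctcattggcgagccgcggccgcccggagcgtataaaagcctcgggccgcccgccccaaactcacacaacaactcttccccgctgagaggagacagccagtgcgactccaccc

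The kappa-B letters were found in 2.10% of 10568 promoters of tested genes and in 9 of 26 NF-kB targets with a promoter in the table. Of those 9, 8 fell, and NFKBIZ was not called. Of all 26, 23 fell, a share close to that among the 9. The TEAD letters were found in 10.9% of the same promoters and in 7 of 18 YAP and TAZ targets. The 4 of these that rose were CCN2 with 3 matches, ANKRD1 with 2, PTPN14 and TGFB2. Of all 18, 8 rose. NUAK2, with 2 matches, fell (-0.32), and LATS2 and YAP1 were not called. The lists were compiled from known targets, so such matches describe the lists and draw on what is known of them. A match is a run of letters and does not show that a factor binds.

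**Figure D4:**
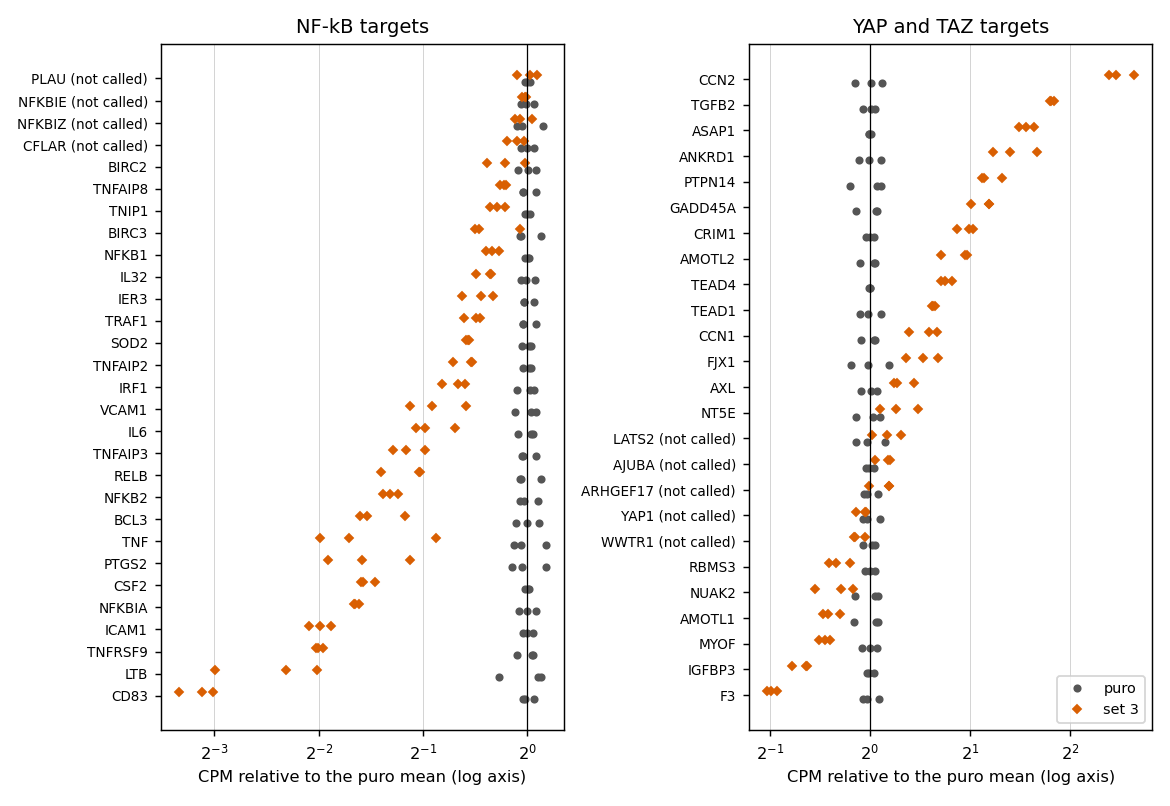
CPM of each column relative to the puro mean, on a log axis, for the 29 tested NF-kB targets and the 25 tested YAP and TAZ targets, with puro columns as grey circles and set 3 columns as orange diamonds. Most NF-kB targets lie left of puro in all 3 set 3 columns, down to CD83, while YAP and TAZ targets run from F3 on the left to CCN2 on the right.

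Ribosomal protein genes rose together by a small amount. Of 79 cytosolic ribosomal protein genes, 63 were higher (79.7%) and 1 lower (1.27%), beside 27.7% and 27.2% of all tested genes. The median log2 fold change was 0.27. RPS27 rose by 0.61 and RPL28 by 0.57, and RPLP2 stood apart at 1.33. The 1 fall, RPLP0 (-0.23, edgeR adjusted p = 0.010), has groups that overlap, and its call was lost without puro replicate 3 and without set 3 replicate 2 or 3 (edgeR adjusted p = 0.0632, 0.0651 and 0.0903). Summed, these genes took 5.81 to 6.60% of counts in puro and 7.14 to 7.76% in set 3. Without set 3 replicate 1, 59 were higher and 2 lower. Over all 20 alternatives the count of rises ran from 18, in a test against a minimum fold of 1.2, to 68 with no filter, and the median from 0.22 to 0.33.

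Mitochondrial genes moved the same way. Of 13 mRNAs encoded in the mitochondrial genome, 10 rose (76.9%) and 0 fell by edgeR, beside 27.7% and 27.2% of all tested genes. Their median was 0.32. DESeq2 also gave 10 and 0, and 11 rose and 0 fell at an unadjusted edgeR p of 0.05. The share of counts of these mRNAs went from 2.26 to 2.40% in puro to 2.65 to 2.80% in set 3. MT-ATP6, a subunit of ATP synthase, read 1560, 1503 and 1361 CPM in puro and 2340, 2330 and 2169 in set 3 (log2 fold change 0.63). Of 75 nuclear genes of oxidative phosphorylation, 34 rose (45.3%) and 9 fell (12%) with a median of 0.18. The complex III subunit UQCRC2 rose by 1.02, while SDHD, an anchor of complex II, fell from 60.7, 68.3 and 67.2 CPM to 20.6, 19.1 and 14.2 (-1.87). Translation factors had 19 of 46 higher (41.3%) and 5 lower (10.9%), with a median of 0.13. Nucleolar genes had 19 of 47 higher (40.4%) and 9 lower (19.1%), with a median of 0.17. EIF4H (0.89) and NOP58 (1.40) were among the rises. The translation repressor EIF4EBP1 (-1.11) and the ribosome assembly factor RRS1 (-1.21) were among the falls.

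Listed HIF targets leaned downward, with a median of -0.17. Of 42 tested, 17 fell (40.5%, beside 27.2% of all tested genes) and 10 rose (23.8%, not far from the 27.7% of all). EPAS1, which encodes HIF-2alpha, read 210, 215 and 209 CPM in puro and 136, 142 and 151 in set 3 (log2 fold change -0.56, edgeR adjusted p = 8.25e-08). CA12, a carbonic anhydrase, read 208, 215 and 210 CPM in puro and 70.4, 70.3 and 70.0 in set 3 (-1.59). VEGFA, the angiogenic growth factor, fell by 0.39 on the log2 scale and ANGPTL4 by 2.79, whereas TMEM45A on the same list rose. Glycolysis genes showed 12 falls (44.4%) and 4 rises (14.8%) among 27, with the regulatory kinase PFKFB4 at -1.56 and the muscle phosphofructokinase PFKM at 0.81.

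Among renal and epithelial genes, more fell than rose. PAX8, a renal lineage factor, read 298, 271 and 281 CPM in puro and 115, 129 and 134 in set 3 (log2 fold change -1.17), and the cadherin CDH6 (-1.23) fell with it. PAX2, another renal factor, rose by 0.82. Of 23 epithelial genes, 9 fell and 3 rose, with a median of -0.38, and 7 fell at least 2-fold. ELF3, an epithelial transcription factor, read 50.5, 42.6 and 42.3 CPM in puro and 7.38, 7.29 and 8.69 in set 3 (-2.53), with EPCAM (-2.10) and the tight junction gene CLDN4 (-2.0) also lower. The keratins KRT18 (0.68) and KRT8 (0.30) and the desmosomal PKP2 (1.37) rose. Of 15 mesenchymal genes, 6 rose (40%) and 4 fell (26.7%, near the share of all tested genes), with a median of -0.15. ZEB2 (0.94), CDH2 (0.42) and VIM (0.42) were among the rises. The falls included SNAI1 (-1.30), the largest change of these, and COL1A1 (-0.56).

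Genes of apoptosis fell more often than they rose, 18 of 36 (50%) against 4 (11.1%), with a median of -0.26. The shares over all tested genes were 27.2% lower and 27.7% higher. BMF read 47.0, 49.9 and 46.0 CPM in puro and 4.43, 3.35 and 5.49 in set 3 (log2 fold change -3.42). BOK, a pro-apoptotic member of the BCL2 family, went the other way, from 45.8, 35.4 and 42.8 CPM to 125, 148 and 143 (1.75). Both directions thus include genes that promote cell death.

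Cell cycle lists had more falls than rises and medians near 0. Of 52 genes of the G1/S transition and DNA replication, 17 fell (32.7%) and 6 rose (11.5%), with a median of -0.06. Of 43 mitotic genes, 16 fell (37.2%) and 10 rose (23.3%), with a median of -0.11. Among all tested genes 27.2% fell and 27.7% rose, so the G1/S falls and mitotic rises were not far from the common case. TOP2A, the topoisomerase of dividing cells, fell by 0.93 and the cell cycle inhibitor CDKN1A by 0.96 on the log2 scale, while the replication factors GINS2 and RPA2 rose by 1.08 and 0.92. The stress lists were also split, beside 27.7% of all tested genes higher and 27.2% lower. Of 32 genes of the NRF2, glutathione and iron list, 11 rose and 11 fell (34.4% each). HMOX1, the heme-degrading enzyme, read 14, 10.1 and 12.8 CPM in puro and 55.2, 58.9 and 64.2 in set 3 (log2 fold change 2.27). Of 27 p53 targets, 11 rose (40.7%) and 7 fell (25.9%). Of 37 genes of ATF4 and the unfolded protein response, 12 rose (32.4%) and 11 fell (29.7%), both near the shares of all tested genes. Its members include SEL1L (1.21) and EDEM1 (-1.61).

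The m6A machinery moved little. Of 27 listed writers, erasers and readers, 5 rose and 5 fell (18.5% each), with a median of 0.003. Both shares were smaller than those of all tested genes, 27.7% and 27.2%. IGF2BP2 itself, the reader that the hairpin targets (-1.19), is not on this list. FTO, a demethylase, rose by 0.42 and CBLL1, a ligase of the methylation complex, by 0.91, while the methyltransferase METTL16 fell by 0.94 on the log2 scale. In the small RNA machinery, 4 of 13 genes rose and 4 fell (30.8% each), near the shares of all tested genes. Among them were the exporter XPO5 (0.86) and the processing enzymes and effectors DICER1 (-0.66) and AGO2 (-0.43).

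**Figure D5:**
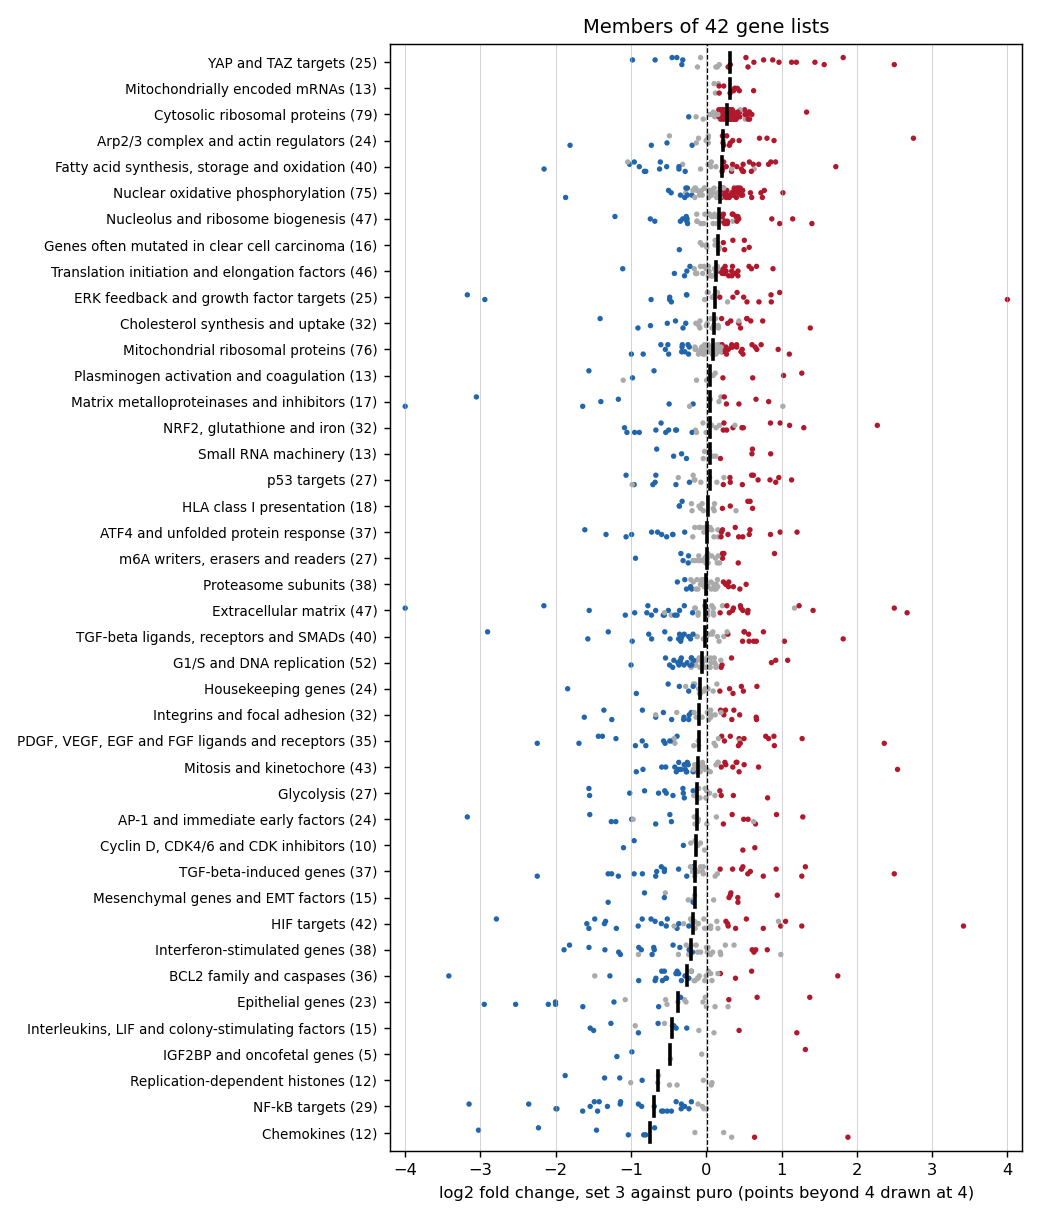
Log2 fold change of every tested member (points, horizontal axis) of 42 gene lists (rows, with the number tested in brackets); red members were called higher, blue lower and grey not called, points beyond 4 are drawn at 4, black bars mark list medians and the dashed line the median of all tested genes. By the edgeR fit, chemokines and NF-kB targets have medians of -0.75 and -0.69, which ran from -0.81 to -0.03 and from -0.74 to -0.53 over the alternatives, and YAP and TAZ targets a median of 0.32.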

How the data were processed

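RNA-seq of 786-O cells in 3 puro and 3 shIGF2BP2 samples was analysed. The authors deposited whole-number read counts per gene symbol. The deposited FPKM values are the same counts divided by gene length and library total: a single length per gene fitted every column for 15998 of 15998 genes compared, within a relative tolerance of 1e-06. Reads were processed with fastp 0.23.2, STAR 2.7.10a and featureCounts on hg38, per the submitters' processing notes. The sources used here do not give the annotation release, the strand setting or how multimapping reads were handled. Both tables hold 3 further columns that were not used. Replicate pairs differed by more than sampling noise (chi-square per degree of freedom 6.89 to 32.2).

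Counts were filtered with filterByExpr (minimum count 10), scaled with TMM factors and tested with edgeR's quasi-likelihood test (edgeR 4.0.16, R 4.3.3; Benjamini-Hochberg FDR 0.05, no covariate, no minimum fold). CPM values use TMM factors. DESeq2 1.42.0 and limma 3.58.1 served as alternatives, with other scalings, filters and thresholds, a replicate block, a length trend and each column left out. On simulated data the test recovered 21, 35, 42 and 50 of 50 changes of 1.25-, 1.5-, 2- and 4-fold, with 9 false calls among 12877 genes.

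Genes named were the 12 largest called rises and falls (mean of at least 5 CPM, no overlap), the 6 largest gains and losses in FPKM, genes at or under 3 counts in all 3 columns of 1 group, a panel around IGF2BP2 and TGF-beta, and up to 3 leading members of each list in each direction. Genes outside this rule are the uncalled members of a list, list members that hold a promoter motif, renal markers and the neighbours of MMP13, and apart from the markers they were named after their values were seen. Gene lists, members and the word search were chosen with earlier results of these data known. 3' UTRs came from GENCODE 29 (the search took those of at least 30 bases and words held by at least 200 genes), and promoters and miRNAs from RefSeq. Some genes of these lists are not reported here.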

Additional observations from a re-analysis of the deposited data

How the results depend on the processing

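Of 252 named genes, 248 were called, and 218 kept their direction and side of the threshold in all 20 alternatives. IGF2BP2 stayed between -1.22 and -1.12. With limma on log2(FPKM + 1), with and without the filter, 153 rises and 272 falls reached 2-fold, since the pseudocount shrinks low genes. A glmTreat test against a fold of 1.2 left 2041 higher and 2145 lower. No gene was called in the opposite direction in any alternative. The share of rises among the calls ran from 45.8% (log2(FPKM + 1), no filter) to 54.9% (length trend removed), against 50.5%. Leaving out single replicates gave 3163 to 3780 genes higher and 3087 to 3551 lower. Only uncalled genes changed sign: CCND1 stood at 0.0107 with the length trend removed and between -0.0730 and 0.0455 with replicates left out, SMAD4 between -0.00372 and 0.104 and IGF2BP3 between -0.119 and 0.00406.

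With a replicate block, 3251 genes were higher and 3188 lower. Deviations of same-numbered columns from their group means correlated at -0.152, -0.0844 and -0.0481, so no shared deviation was seen. These correlations cannot show whether same-numbered columns were prepared together, and no label says so. They were treated as unpaired in the main test. Among the panel genes the block lost SMAD2 (edgeR adjusted p = 0.0920). With 3 columns a group the simulated test recovered 21 of 50 changes of the smallest size simulated. Far fewer genes changed in the simulation than were called in the data, so the same FDR asks for a smaller p-value there. The recovered share therefore does not carry over to the data, and uncalled genes may still hold small changes.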

Other observations

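MMP13 lies in a cluster of metalloproteinase genes on chromosome 11, from MMP7 at 102520508 to MMP13 at 102955734 (GRCh38), and the other members measured there were lower too. This cluster was looked up after the fall of MMP13 was seen. MMP1, an interstitial collagenase, had 491, 436 and 489 counts in puro and 180, 174 and 188 in set 3 (log2 fold change -1.64, edgeR adjusted p = 4.58e-12). MMP7, matrilysin, had 268, 238 and 222 counts in puro and 120, 122 and 84 in set 3 (-1.40, edgeR adjusted p = 1.45e-07). MMP10, a stromelysin, had 18, 26 and 14 counts in puro and 4, 2 and 2 in set 3 (-3.05, edgeR adjusted p = 0.000273). All 4 tested genes of the cluster fell, and MMP20, MMP27, MMP8, MMP3 and MMP12 had too few counts to be tested. Elsewhere in the genome MMP15 and MMP16 rose by 0.83 and 0.66. The whole list of 17 metalloproteinases and inhibitors held 5 rises (29.4%) and 7 falls (41.2%). Of all tested genes, 27.7% rose, near the share of rises on the list, and 27.2% fell.

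3 genes of striated muscle were among those that nearly vanished. CSRP3, a muscle LIM protein, went from 1.78 CPM to 0.0302, with at most 3 counts in every set 3 column. The myosin heavy chains MYH8 and MYH4, which sit side by side on chromosome 17 and share much sequence, went from 1.04 and 1.03 CPM to 0.00810 each, and how shared reads were counted is not given in the sources used here. No gene that reached 1 CPM in set 3 had at most 3 counts in every puro column.

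By chromosome, medians of the log2 fold change ran from -0.12 on chromosome 18, where 67 of 177 tested genes (37.9%) were lower and 37 (20.9%) higher, to 0.07 on chromosome 19, where 192 of 909 (21.1%) were lower and 255 (28.1%) higher, leaving aside the mitochondrial genome.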
